A study of Homo sapiens with 4 samples.

Results

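The genes described here separated both drug-resistant HuH7 samples from both parental samples in the same direction. HuH7 is a human hepatocellular carcinoma cell line that keeps many hepatocyte products, among them albumin and alpha-fetoprotein. A gene was included when F6 and F12 both lay above, or both lay below, the parental arrays F0 (1) and F0 (2), and when its log2 signal reached 6 on at least 1 array. The gap is the distance between the nearest values of the pairs on the log2 scale, so a gap of 1 means that every resistant value lay at least 2-fold beyond every parental value. Of 19775 genes with a usable probeset, 11928 reached a signal of 6, and 997 of these (8.36%) had a gap. F6 and F12 were higher for 568 genes and lower for 429. The gap itself chose these genes, so their differences are a description and not a test.

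Each of the 4 samples was measured on 1 expression array. The parental group (F0) had 2 arrays and no regrafting, and the labels do not say whether these came from separate cultures or tumors, or whether the cells had grown in mice. F6 and F12 had 1 array each and came from tumors grown in NOD/SCID mice, which lack functional T and B lymphocytes. Per the labels' protocols, those mice received intraperitoneal JNJ-28841072, which inhibits aurora kinases and the receptors of vascular endothelial growth factor (VEGF), and resistant tumors were regrafted for 6 rounds (F6) or 12 rounds (F12). However, the phenotype label of both resistant samples is sorafenib resistance, and which of the drugs was given remains unsettled here. Untreated tumors carried through the same rounds were not among the samples, so drug treatment and regrafting cannot be told apart. F6 and F12 stand at different rounds and are not replicates of one condition. Whether RNA of the mouse host reached the probes was not tested.

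The parental arrays stood apart from each other. Among the 11928 genes reaching 6, the median absolute difference was 1.633 between F0 (1) and F0 (2) and 1.052 between F6 and F12. Only 25.4% of these genes lay within 2-fold on the F0 pair, against 47.7% on F6 and F12. RNA45SN5, the precursor of ribosomal RNA, gave signals of 12.97 on F0 (1), 6.87 on F0 (2), 11.93 on F6 and 6.54 on F12. It differed within each pair, and F0 (1) read near F6 and F0 (2) near F12. A difference between F6 and F12 can therefore resemble the one between the parental arrays. Leaving out F0 (1) raised the count of genes with a gap from 568 to 2968 upward and from 429 to 3044 downward, and leaving out F0 (2) raised it to 5091 and 5050. A pair reduced to 1 array can only widen a gap, so these counts show how much each parental array restricted the set. In a limma fit of F6 and F12 against F0 over all 19775 genes, 0 genes passed a Benjamini-Hochberg adjusted p of 0.05 and 45 had an unadjusted p under 0.05. The smallest p an exact permutation test can give for 2 arrays against 2 is 0.333, two-sided.

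Hepatocyte markers were present on all 4 arrays. Albumin (ALB) read 10.18 and 13.75 on the F0 arrays, 12.41 on F6 and 13.58 on F12. Alpha-fetoprotein (AFP), the fetal plasma protein that liver tumors often secrete, read 8.88 and 13.73 against 11.95 and 12.60. Both had F6 and F12 between the parental arrays and so no gap. Transthyretin (TTR) lay between 10.49 and 12.27 and alpha-1-antitrypsin (SERPINA1) between 11.20 and 13.82, whereas apolipoprotein A-I (APOA1) read only 5.20 to 6.57. The pioneer factor FOXA2 was the 1 gene of 12 hepatocyte transcription factors reaching 6 with a gap, at 9.76 and 10.32 against 10.45 and 10.66. Over all genes reaching 6, 8.36% had a gap in either direction.

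Several gene families with known roles in liver cells and tumors recur below. Thymosins hold actin monomers in reserve, galectins are lectins that bind beta-galactosides on glycoproteins, and lysyl oxidases cross-link collagen. REG proteins are small secreted lectins best known from pancreas and gut, whose genes respond to interleukin-6 type cytokines acting through STAT3. SOCS3 is the feedback inhibitor that the same pathway induces.

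Most gaps were narrow. The 568 upward genes, 4.76% of those reaching 6, had a median gap of 0.213, which is 1.159-fold, and 328 of them had a gap under 0.25. The 429 downward genes, 3.6% of those reaching 6, had a median of 0.235 (1.177-fold), with 221 under 0.25. These shares, 4.76% and 3.6%, are the background for every count of list members given here. A gap of at least 1 was reached by 20 genes upward (0.168% of those reaching 6) and 37 downward (0.31%), and a gap of at least 2 by 5 in each direction. The widest were TMSB4X at 3.98 upward, a 15.78-fold distance, and REG3A at 3.62 downward, a 12.27-fold distance. At the edge of the rule, NR6A1 entered with a gap of 0.002 upward (7.56 and 8.79 against 8.93 and 8.79), and PCBP1-AS1 stayed out at 0.00. At the 2-fold edge, SLC47A1 stood inside at 1.01 and FKBP10 outside at 0.98 upward, and HTRA1 inside at 1.00 and NDRG1 outside at 0.99 downward. With each array centred on its median over genes, which moved the resistant minus parental difference by 0.098, the upward share of members was 45.4% in place of 57.0%, so which direction holds more genes depends on the scaling.

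**Figure D1:**
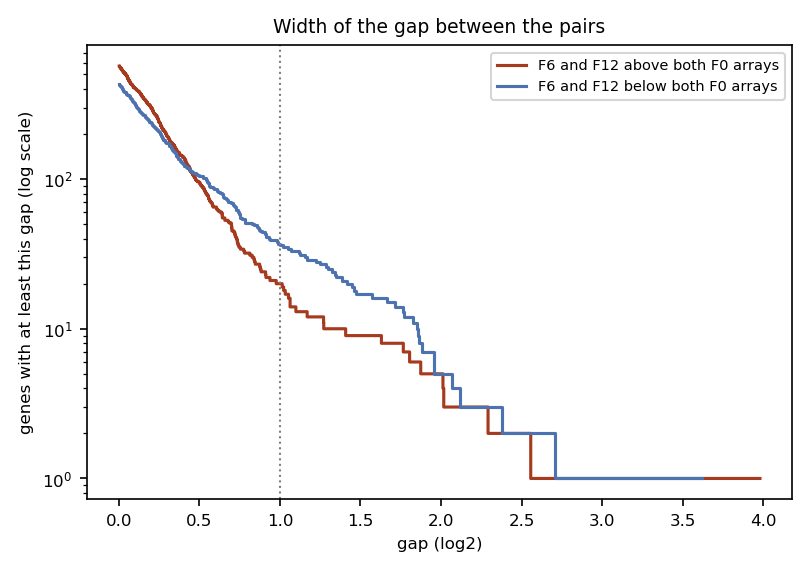
Number of genes (log axis) with at least the gap on the x axis (log2), for genes higher (red) and lower (blue) in F6 and F12 than in both F0 arrays. The curves start at 568 and 429 genes and reach 20 and 37 genes at a gap of 1, marked by the dotted line.

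Among genes higher in F6 and F12, the widest gap was that of TMSB4X. TMSB4X, which encodes the actin-sequestering peptide thymosin beta 4, read 7.56 on F0 (1), 9.19 on F0 (2), 13.17 on F6 and 13.31 on F12. Its resistant mean was 4.87 above the parental mean on the log2 scale. The resistant values differed by less than the parental values did. Among 12 thymosin and actin monomer-binding genes reaching 6, cofilin 2 (CFL2, 7.71 and 9.14 against 9.35 and 9.84) also lay above, and profilin 2 (PFN2, 10.18 and 10.57 against 9.96 and 9.28) lay below. The list median was -0.01 (all genes reaching 6, 0.046), so the list as a whole did not follow TMSB4X. In these bulk samples fewer cells of a type and less RNA per cell cannot be told apart. The 5 genes whose centred profiles over the 4 arrays lay nearest to that of TMSB4X were CYP2B6 (Euclidean distance 1.93), A2M (2.11), CTHRC1 (2.26), NRG1 (2.29) and ICAM4 (2.39).

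ICAM4 and LGALS1 were also among the 5 widest upward gaps. ICAM4, an adhesion protein of red cells that binds integrins, read 5.13 and 4.76 on the F0 arrays against 7.69 on F6 and 8.09 on F12. Its parental values are near background (the array medians over probesets lay between 4.67 and 4.85), so this distance is only a lower limit. Of 12 ICAM and related adhesion genes reaching 6, VCAM1 and PECAM1 also had a gap upward and 0 had one downward. VCAM1 read 4.16 and 3.69 against 4.56 on F6 and 9.46 on F12, so F6 barely left the parental range. LGALS1, which encodes galectin-1, read 7.999 and 6.25 against 10.42 and 10.01.

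Of 6 galectin genes reaching 6, LGALS1 was the 1 above both F0 arrays, and LGALS3 and LGALS14 were below both. LGALS3, the chimera-type galectin, read 11.58 and 10.99 against 9.34 and 9.55. LGALS14, known mainly from placenta, read 6.70 and 8.59 against 4.32 and 3.85, near background in both resistant samples. Within each of these 3 genes the 2 pairs did not overlap. The resistant values lay within 2-fold of each other in all 3.

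**Figure D2:**
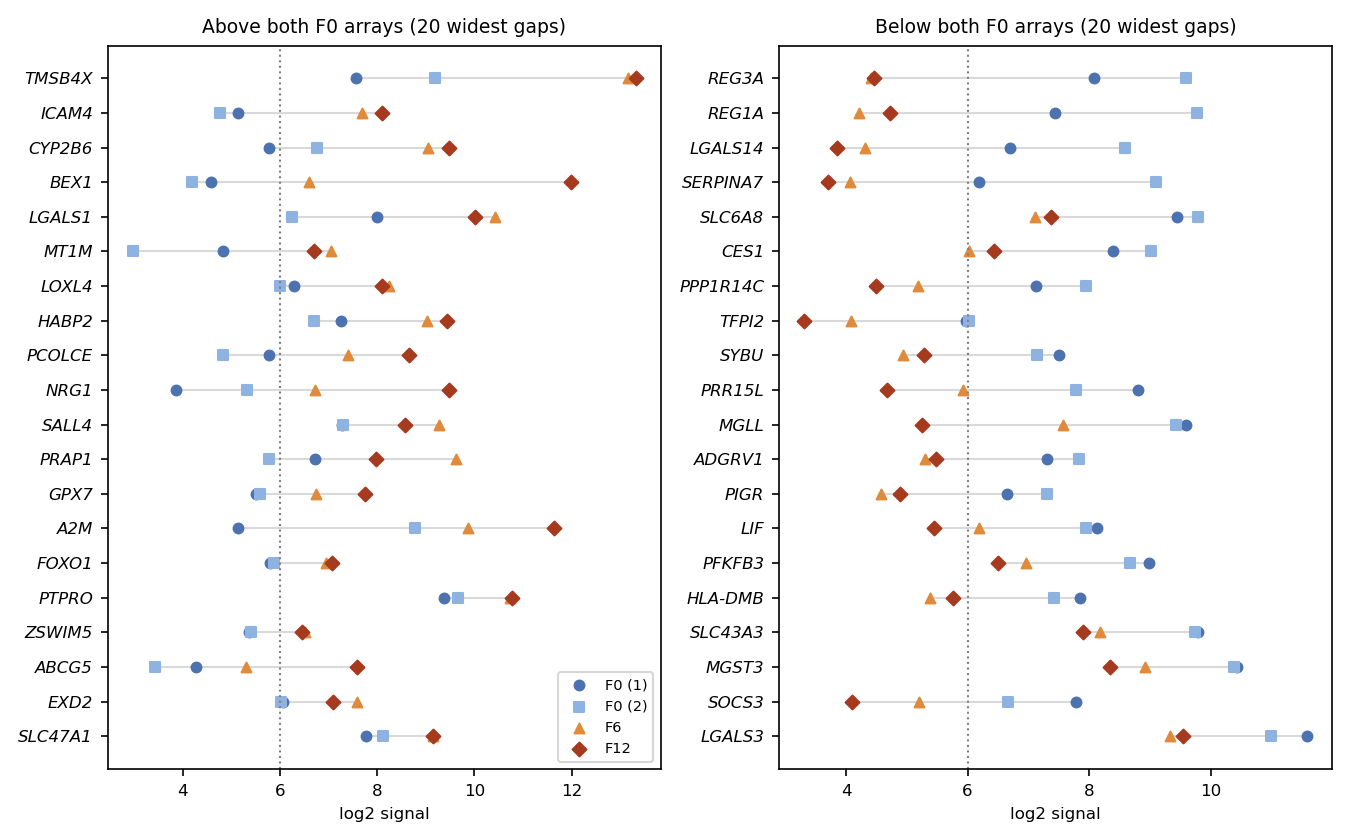
Log2 signal (x axis) of the 20 genes with the widest gap in each direction on F0 (1), F0 (2), F6 and F12, 1 symbol per array. The dotted line marks a signal of 6, and the pairs do not overlap in any row because the genes were chosen that way.

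LOXL4 and PCOLCE, which act on collagen, were among the widest upward gaps, and FKBP10 and CTHRC1 had gaps somewhat below 1. LOXL4, a lysyl oxidase, read 6.28 and 6.00 on the F0 arrays against 8.24 on F6 and 8.09 on F12, although its second probeset (6.64 and 5.13 against 5.89 and 5.10) had no gap. PCOLCE, which enhances cleavage of the procollagen C-propeptide, read 5.76 and 4.83 against 7.39 and 8.65. FKBP10, a collagen chaperone of the endoplasmic reticulum, read 6.00 and 4.18 against 7.08 and 6.98. CTHRC1, a secreted collagen triple helix repeat protein, read 3.87 and 6.42 against 7.30 and 9.42. In a list of 29 measured collagen-modifying enzymes and matrix inhibitors that was composed after these values were seen, 6 of the 26 genes reaching 6 were above both F0 arrays (LOXL4, PCOLCE, FKBP10, CRTAP, CTHRC1 and TIMP1) and 2 were below (LOXL2 and TIMP2). Among all genes reaching 6, 4.76% were above and 3.6% below. The median difference of the list was 0.05, close to that of all genes reaching 6. The fibrillar collagen markers COL1A1, COL1A2 and COL3A1 read between 3.09 and 5.74 on all arrays.

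CYP2B6, SLC47A1 and ABCG5 were further genes with a 2-fold gap upward. CYP2B6, a cytochrome that oxidizes many drugs and is induced through the receptor CAR, read 5.77 and 6.76 on the F0 arrays against 9.05 on F6 and 9.48 on F12. SLC47A1, the proton antiporter MATE1 that exports organic cations, read 7.77 and 8.13 against 9.15 and 9.14. ABCG5, a sterol transporter subunit, read 4.27 and 3.42 against 5.30 and 7.59, below 6 on all arrays but F12. Of 18 drug-metabolizing enzyme genes reaching 6, CYP2B6 and FMO5 lay above both F0 arrays and CES1 and CYP2C8 below. Of 12 ABC drug and bile transporter genes, ABCG5 lay above and ABCC3 and ABCC5 below. For both lists the background over all genes reaching 6 was 4.76% above and 3.6% below. ABCC3, a basolateral exporter of conjugates, read 7.56 and 8.52 against 6.43 and 6.78.

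Secreted plasma proteins lay on both sides. HABP2, a plasma serine protease, read 7.25 and 6.69 on the F0 arrays against 9.02 on F6 and 9.43 on F12. PRAP1, a proline-rich secreted protein of liver and gut, read 6.71 and 5.77 against 9.62 and 7.98. The protease inhibitor alpha-2-macroglobulin (A2M) read 5.13 and 8.77 against 9.87 and 11.63, so its gap of 1.10 was smaller than the distance within either pair. Among 24 hepatocyte plasma protein genes reaching 6, APOE, AHSG and ITIH2 were above both F0 arrays and APOA2, SERPINA7 and ORM1 below. Among 20 complement and coagulation genes, PROC (protein C), F12 (coagulation factor XII) and SERPING1 (C1 inhibitor) were above, and CFB and PLG below. The gaps of APOA2 (0.087) and PLG (0.103) were narrow. For both lists the background was 4.76% above and 3.6% below. PROC read 7.29 and 6.42 against 8.16 and 8.76.

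NRG1, BEX1 and SALL4 were also among the widest upward gaps. NRG1, a ligand of the ERBB receptors, read 3.86 and 5.31 on the F0 arrays against 6.72 on F6 and 9.47 on F12. Its other probesets, all under 6, had no gap, and the mean of its probesets had a gap of 0.49 in place of 1.41. BEX1, a small X-linked adaptor of the brain-expressed family, read 4.58 and 4.19 against 6.59 and 11.99, the largest distance between F6 and F12 among the widest 20. SALL4, a zinc finger factor of embryonic stem cells and fetal liver, read 7.28 and 7.29 against 9.28 and 8.57, and was the only gene with a gap among the 13 oncofetal and progenitor liver genes reaching 6. The gap of SALL4 was 1.27, and 0.57 after quantile normalization of the genes again, which kept 14 of the 20 upward genes at 2-fold.

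FOXO1, a forkhead factor that insulin signalling through AKT keeps out of the nucleus, read 5.79 and 5.88 on the F0 arrays against 6.94 on F6 and 7.08 on F12. A further FOXO1 probeset had a gap of 0.25 and the lowest of its probesets none. The receptor phosphatase PTPRO read 9.37 and 9.67 against 10.73 and 10.77, one of the few wide upward gaps that lay far above background on all arrays. MT1M, a metallothionein that binds zinc and copper, read 4.82 and 2.97 against 7.05 and 6.69. Of 11 metallothionein and zinc genes reaching 6, MT1E (10.69 and 7.90 against 10.74 and 11.62) also had a gap. Metallothionein genes have near-identical copies, and their probes may be shared. The other genes of the widest 20 were GPX7, a peroxidase of the endoplasmic reticulum (5.51 and 5.58 against 6.75 and 7.75), the nuclease EXD2 (6.06 and 6.03 against 7.58 and 7.09) and the zinc finger gene ZSWIM5 (5.36 and 5.40 against 6.51 and 6.45).

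Genes lower in F6 and F12 were led by the REG lectins. REG3A, a secreted lectin that binds bacterial peptidoglycan, read 8.08 on F0 (1), 9.59 on F0 (2), 4.41 on F6 and 4.46 on F12. REG1A read 7.44 and 9.78 against 4.21 and 4.73. Both resistant values of both genes lay at background, so the distances are lower limits. A second REG3A probeset read between 3.29 and 4.01 on all arrays, at background throughout, and gives no second measurement. These were the only REG genes reaching 6, and they are neighbours on chromosome 2 among genes that did so.

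The promoter windows of REG3A and REG1A are shown with those of SERPINA7 and FABP1. These are 4 of 7 genes with a 2-fold gap downward that have TATAAA (the TATA box) between 35 and 25 bases before the start. The sequences are the 250 bases before the annotated start, from RefSeq on build GRCh38.p14, written 5′ to 3′ on the gene's strand with TATAAA in capitals. REG3A lies at chr2:79159754-79160003 (minus strand), REG1A at chr2:79120238-79120487 (plus), SERPINA7 at chrX:106038728-106038977 (minus) and FABP1 at chr2:88128063-88128312 (minus).
REG3A: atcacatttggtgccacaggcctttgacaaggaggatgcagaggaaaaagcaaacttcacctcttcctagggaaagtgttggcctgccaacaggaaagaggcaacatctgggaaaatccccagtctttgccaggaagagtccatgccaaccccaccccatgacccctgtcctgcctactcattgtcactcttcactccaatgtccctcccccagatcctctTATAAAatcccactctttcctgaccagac
REG1A: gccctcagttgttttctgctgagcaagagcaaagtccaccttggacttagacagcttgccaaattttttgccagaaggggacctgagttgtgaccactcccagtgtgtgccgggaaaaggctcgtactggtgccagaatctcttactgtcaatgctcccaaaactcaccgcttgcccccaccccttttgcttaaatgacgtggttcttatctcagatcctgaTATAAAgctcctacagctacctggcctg
SERPINA7: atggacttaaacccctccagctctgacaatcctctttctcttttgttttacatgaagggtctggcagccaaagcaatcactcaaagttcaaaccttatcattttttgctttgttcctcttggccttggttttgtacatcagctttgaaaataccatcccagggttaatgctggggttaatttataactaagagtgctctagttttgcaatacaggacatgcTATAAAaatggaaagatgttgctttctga
FABP1: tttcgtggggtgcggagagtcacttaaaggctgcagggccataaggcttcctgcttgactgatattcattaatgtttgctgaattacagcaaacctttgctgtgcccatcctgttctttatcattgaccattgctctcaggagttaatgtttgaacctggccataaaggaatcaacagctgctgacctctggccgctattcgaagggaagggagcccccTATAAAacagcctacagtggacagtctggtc

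In these windows the first base of TATAAA on the gene's strand lay at -29 in REG3A, -28 in REG1A, -29 in SERPINA7 and -31 in FABP1, counted from the annotated start. RefSeq windows from 250 bases before to 50 after the start were matched for 26 of the 37 genes with a 2-fold gap downward, for 13 of the 20 upward, and for 9700 of all 11928 genes reaching 6. TATAAA on the gene's strand between 35 and 25 bases before the start was found in 7 of the 26 (26.9%), in 0 of the 13 upward and in 185 of the 9700 (1.91%). The other 3 genes were AKR1C4, LEAP2 and TNNT1. Over all members with a window, it stood in 19 of 322 downward genes (5.9%) and 12 of 448 upward genes (2.68%). This placement was chosen after the positions were seen, the shares have no test, and a match does not show that a site is used.

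The other motifs were searched on both strands in the same windows: TTGCNNNAA (C/EBP), TTCNNNGAA (STAT), TGCGCNC and TGCACNC (metal response), GTAAACA (forkhead), CACGTG (E-box), GGGANTTCC (kappa-B), TGACTCA (AP-1) and ACGTG (hypoxia). Every CACGTG also counts as ACGTG. The C/EBP pattern was found in 5 of the 26 windows of the downward 2-fold genes (19.2%), in 6.52% of the windows of all downward members and in 6.18% of all windows. The STAT pattern was found in 0 of those 26, in 7.45% of all downward members and in 6.15% of all windows. A count of 0 says only that these letters are not in this stretch. In the 13 upward windows the first metal response pattern was found in 23.1% against 30.8% of all.

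SERPINA7, FABP1, CES1, MGLL and MGST3 were also among the genes with a 2-fold gap downward. SERPINA7, which encodes thyroxine-binding globulin of plasma, read 6.19 and 9.11 on the F0 arrays against 4.07 on F6 and 3.70 on F12. FABP1, the abundant liver fatty acid-binding protein, read 12.26 and 13.06 against 11.14 and 10.56, and its second probeset had a gap too. FABP1 stayed far above background on every array. CES1, the carboxylesterase that cleaves ester drugs and lipids, read 8.39 and 9.01 against 6.03 and 6.44. MGLL, the lipase that releases fatty acid from monoacylglycerol, read 9.60 and 9.42 against 7.57 and 5.25, and a second probeset gave 8.79 and 9.43 against 7.10 and 5.83. MGST3, a microsomal glutathione transferase, read 10.43 and 10.39 against 8.91 and 8.34. FABP1 and the other genes outside the widest 20 that belong to no list are named after their values were seen.

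SLC6A8, SLC43A3 and PFKFB3 were further genes with a 2-fold gap downward. SLC6A8, the creatine transporter, read 9.44 and 9.79 on the F0 arrays against 7.11 on F6 and 7.37 on F12. SLC43A3, a nucleobase carrier, read 9.80 and 9.75 against 8.18 and 7.91, but its second probeset overlapped (9.22 and 6.63 against 7.68 and 4.70), and the mean of both had a gap of 0.26 in place of 1.57. PFKFB3, which makes the fructose bisphosphate that activates phosphofructokinase, read 8.99 and 8.68 against 6.96 and 6.50. In the probeset used, the parental values of all 3 lay within 2-fold of each other, and so did the resistant values. PFKFB4 (10.02 and 9.31 against 8.43 and 7.68) was lower as well, and these were the PFKFB genes reaching 6, in a list composed after the values were seen. Of 17 glycolytic genes reaching 6, PFKFB3 and the glucose transporter SLC2A1 (7.88 and 7.51 against 6.80 and 6.72) were below both F0 arrays and 0 above. The median of that list was 0.21 on F6 and -1.26 on F12 relative to the F0 mean. Its summed linear signal was 98534 on F0 (1), 62228 on F0 (2), 93106 on F6 and 31421 on F12. The list thus differed between the parental arrays as well as between the resistant samples.

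Of 17 hypoxia response genes reaching 6, NDRG1, ADM and ANKRD37 were below both F0 arrays and EGLN3 above. The gaps of ADM (0.043) and EGLN3 (0.044) were very narrow. Among all genes reaching 6, 3.6% were below and 4.76% above. NDRG1, a stress-responsive gene, read 11.91 and 11.50 against 10.52 and 10.29. The vasoconstrictor peptide gene EDN1 read 7.73 and 9.31 against 6.44 and 6.17.

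LIF, SOCS3, LCN2 and CEBPD were among the genes with a 2-fold gap downward. LIF, a cytokine of the interleukin-6 family, read 8.12 and 7.95 on the F0 arrays against 6.19 on F6 and 5.45 on F12. SOCS3, the feedback inhibitor of that pathway, read 7.79 and 6.66 against 5.20 and 4.09, although the gap was seen in 1 of its 4 probesets and the mean of them had none (-0.22). LCN2, the siderophore-binding acute phase protein lipocalin 2, read 7.49 and 7.40 against 5.61 and 6.23. CEBPD, a transcription factor of the acute phase, read 11.35 and 10.78 against 9.72 and 8.64. Of 14 acute phase and NF-kB genes reaching 6, LCN2 and the chemokines CXCL3 and CXCL5 were below both F0 arrays, 0 were above and the other 11 had no gap. Among all genes reaching 6, 3.6% were below and 4.76% above. The list median was -1.71 on F6 and -0.60 on F12.

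A list of interleukin-6 responsive liver genes was composed after these values were seen, so its counts are a description of genes that prompted it. Of its 21 genes reaching 6, REG3A, REG1A, CEBPD, LCN2, SERPINA3, ORM1 and C4BPA were below both F0 arrays, and A2M and TIMP1 above. The shares over all genes reaching 6 were 3.6% below and 4.76% above. SERPINA3 (antichymotrypsin) read 10.42 and 10.51 against 9.81 and 9.47. The fibrinogen genes, which respond to the same cytokine, did not share this: FGB read 8.36 and 11.07 on the F0 arrays, 8.10 on F6 and 11.27 on F12. In a second such list, of cytokines, receptors, kinases and feedback genes of this family, LIF and SOCS3 were below and SOCS2 (4.61 and 5.29 against 5.50 and 9.24) above, of 21 genes reaching 6. STAT3 itself read 8.42 and 9.41 against 8.86 and 9.02, and IL6 between 3.75 and 4.69, near background.

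**Figure D3:**
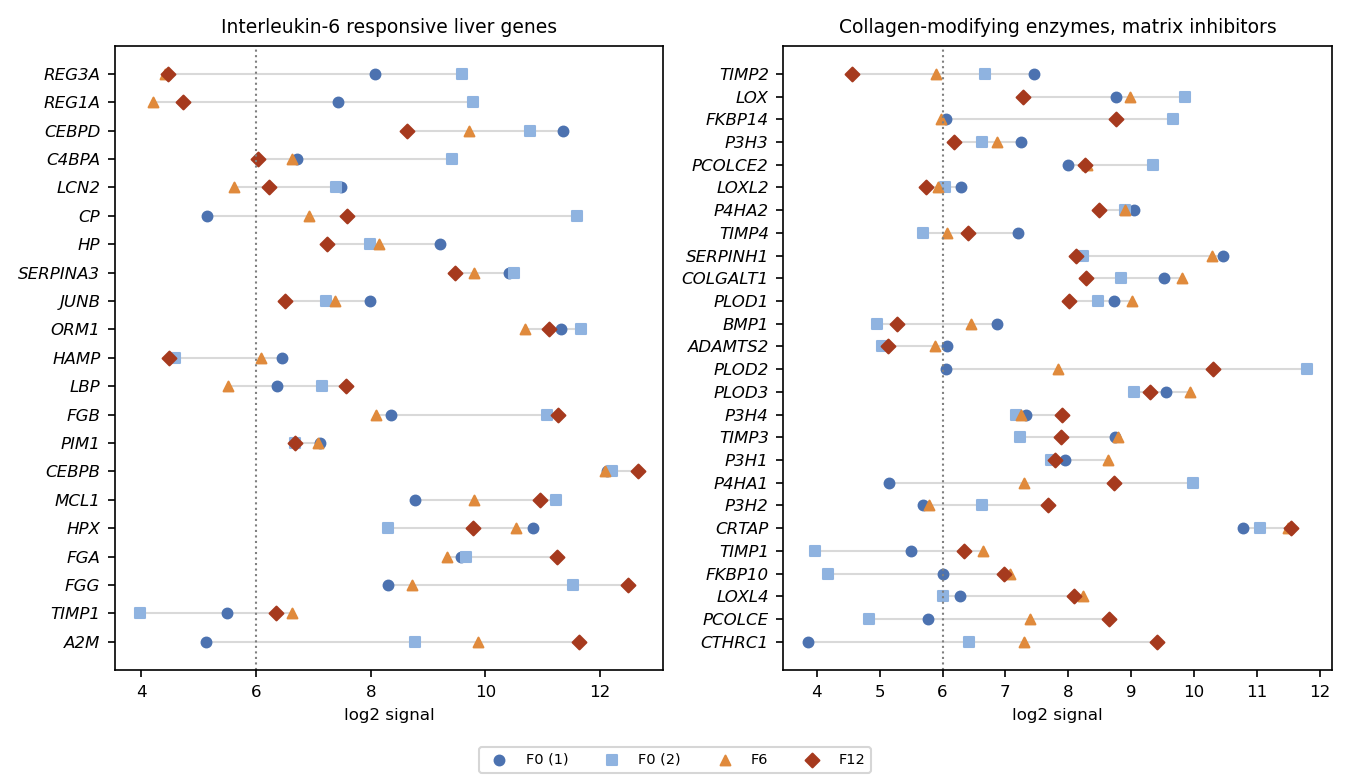
Log2 signal (x axis) on each array for the genes reaching 6 of 2 lists composed after the values were seen, sorted by resistant minus parental mean from lowest (top) to highest, with a dotted line at 6. On the left REG3A, REG1A, CEBPD and LCN2 have a 2-fold gap downward, and on the right most genes have pairs that overlap.

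The genes of HLA-DM had gaps downward. HLA-DMB and HLA-DMA encode the chains of HLA-DM, which loads peptides onto class II molecules. HLA-DMB read 7.85 and 7.43 on the F0 arrays against 5.39 on F6 and 5.77 on F12. HLA-DMA read 8.01 and 6.74 against 5.48 and 6.07, so its parental values differed more than its gap of 0.68. PSMB9, an immunoproteasome subunit encoded beside them, read 9.02 and 7.69 against 6.14 and 6.71. Of 18 interferon-stimulated and antigen presentation genes reaching 6, PSMB9, OAS1, IFIT3 and IFITM1 were below both F0 arrays, IFIT1 and HLA-E above, and the other 12 had no gap. The gap of IFIT1 was only 0.025. HLA-E read 7.32 and 7.28 against 7.56 and 7.64.

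PIGR, MUC13, TFPI2 and ADGRV1 also had a 2-fold gap downward. PIGR, the receptor that carries polymeric immunoglobulins across epithelia, read 6.66 and 7.31 on the F0 arrays against 4.58 on F6 and 4.89 on F12, but its second probeset overlapped (6.93 and 5.21 against 5.93 and 5.26). MUC13, a transmembrane mucin, read 7.10 and 9.77 against 5.78 and 5.71, with both probesets separated. TFPI2, an inhibitor of serine proteases, read 5.97 and 6.02 against 4.09 and 3.31. The adhesion receptor ADGRV1 read 7.30 and 7.83 against 5.30 and 5.48. The phosphatase inhibitor PPP1R14C read 7.14 and 7.95 against 5.18 and 4.49, the kinesin linker SYBU 7.50 and 7.15 against 4.94 and 5.29, and PRR15L 8.81 and 7.78 against 5.92 and 4.67. In all 7 genes both resistant values lay below 6.

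F6 and F12 lay close together for most members. The resistant values lay within 2-fold of each other for 514 of 568 upward and 392 of 429 downward genes, and the parental values for 422 and 342. The rule favours genes whose pairs are tight, so these shares exceed those of all genes by construction. F12 was higher than F6 for 293 upward genes and lower for 275. Among downward genes F12 was lower for 253 and higher for 175. The median distance from the F0 mean was 0.77 on F6 and 0.70 on F12 upward, and -0.66 and -0.74 downward. Among the 20 widest upward genes the medians were 2.10 on F6 and 2.63 on F12, and among the 37 downward genes with a 2-fold gap -2.17 and -2.43. BEX1, VCAM1, SOCS2 and SERPING1 (6.47 and 6.45 against 6.76 and 9.83) were much higher on F12 than on F6, whereas PRAP1 and SFN (14-3-3 sigma, 9.35 and 8.45 against 11.48 and 9.48) were higher on F6.

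**Figure D4:**
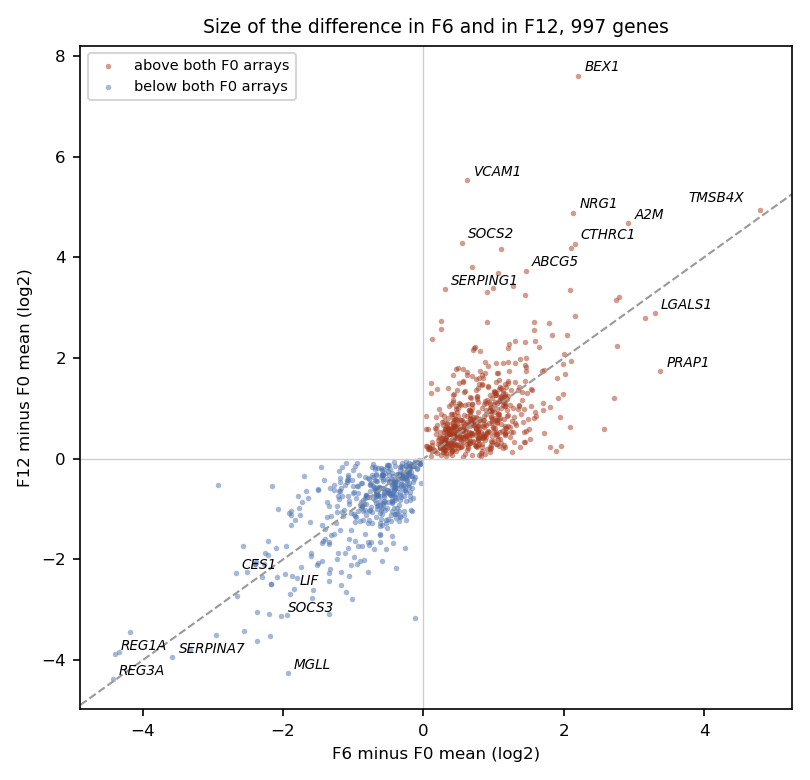
Distance from the F0 mean (log2) on F6 (x axis) and on F12 (y axis) for the 997 members, red where both resistant arrays were higher and blue where both were lower. The dashed line marks equal distances, with TMSB4X and REG3A near it and BEX1, VCAM1 and SOCS2 far above it.

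Other probesets of the same genes showed only part of the gaps. They read the same 4 samples, so they bear on the choice of probeset and add nothing on the difference between the pairs. Of the 359 upward members with more than 1 probeset, 28 had a gap in every probeset, and 269 in 1 probeset only. Of the 245 downward members with more than 1, these numbers were 38 and 159. Among other probesets that themselves reached 6, 74 of 410 had a gap upward for the upward members and 61 of 246 downward for the downward members, while 328 and 207 had the resistant mean on the same side of the parental mean. For the downward genes with a 2-fold gap, 8 of 16 such probesets, over 11 genes, had a gap and 16 of 16 had the same side of the mean. No share over all probesets reaching 6 was counted, so these numbers have no background beside them. FABP1, MGLL, MUC13, PI3 and TLE2 had a gap in each of 2 probesets that reached 6. CALML4, EDN1 and LIMK2 also had a gap in 2 such probesets, but a further probeset of each reached 6 without a gap. CEBPD had a second gap too, but in a probeset that read at most 3.72 and gives no second measurement. For the upward genes with a 2-fold gap only 2 other probesets reached 6, so most of those genes, TMSB4X, CYP2B6 and LGALS1 included, rest on 1 probeset.

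The gene lists show which known groups held members. Against a background of 4.76% upward and 3.6% downward, most lists held 0 to 3 members in a direction. The stress response list for unfolded proteins (26 genes reaching 6) had HYOU1, XBP1 and TRIB3 above and SESN2 below. The gaps of TRIB3 (0.014) and SESN2 (0.012) were very narrow. HYOU1, a chaperone of the endoplasmic reticulum, read 10.06 and 10.23 on the F0 arrays against 10.61 and 11.92. The list median relative to the F0 mean was 0.005 on F6 and 1.83 on F12. That of both together was 0.66, or -0.17 without F0 (1). Its summed linear signal was 27923 on F0 (1), 82921 on F0 (2), 50361 on F6 and 117173 on F12. That sum differed within both pairs. Of 15 Wnt target genes, ZNRF3 and GLUL were above, GLUL (glutamine synthetase) at 11.69 and 11.39 against 12.64 and 11.94. Of 19 MAPK output genes, PHLDA1 and MYC were above and FOS below, and of 13 p53 target genes SFN was above and CDKN1A, the cell cycle inhibitor p21, below at 9.63 and 8.44 against 7.71 and 6.84.

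Lists with no gap in either direction were the 20 NRF2 target genes, 24 mitotic genes, 10 genes of the insulin-like growth factor axis, 10 VEGF ligands and angiogenic factors and 11 target kinases that reached 6. The kinases named by the labels as drug targets, KDR, FLT1, FLT4, AURKA and AURKB, had overlapping pairs. AURKA read 7.92 and 10.80 on the F0 arrays against 10.45 and 9.85, and AURKB 11.40 and 9.02 against 10.61 and 7.27. KDR, the main VEGF receptor, read between 2.45 and 2.93, at background. Of 31 DNA replication genes RPA3 and FEN1 were below, of 16 cholesterol synthesis genes HSD17B7 was above, of 13 fatty acid synthesis genes SREBF1 was below, and of 21 ribosomal protein genes RPS16 was below by a gap that the parental spread exceeds.

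**Figure D5:**
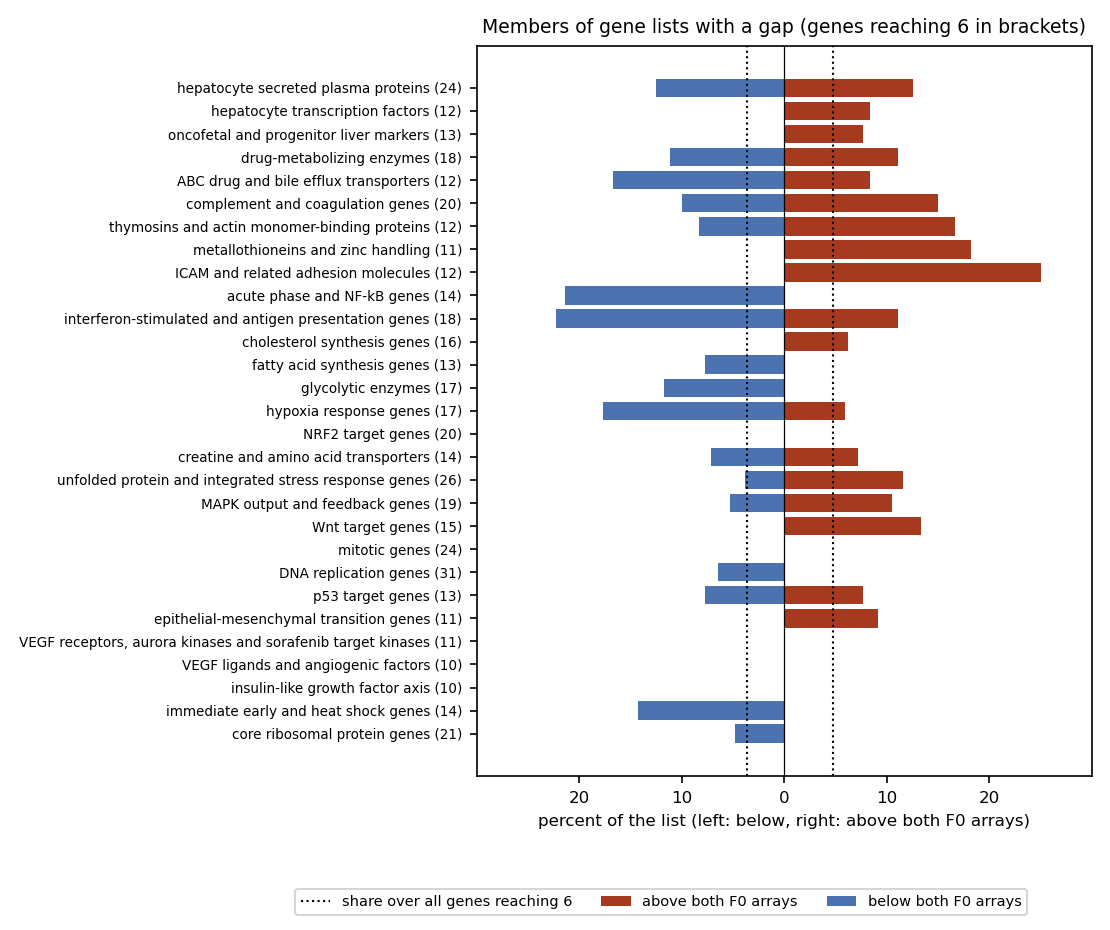
Share of each list's genes reaching 6 (number in brackets) that lay above both F0 arrays (red, right) or below both (blue, left), for lists with at least 10 such genes, with dotted lines at 4.76% and 3.6%, the shares over all 11928 genes. Most bars stand for 1 to 3 genes.

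Summed human markers of other cell types did not separate the pairs, apart from the placental sum, which holds a gene chosen by its gap. F6 and F12 grew in mice, so host cells in them would carry mouse RNA. How the human probesets read such RNA was not tested, so these sums cannot show whether host cells were present. The summed linear signal of 9 erythroid genes was 522 and 228 on the F0 arrays, 362 on F6 and 232 on F12, and that of 12 endothelial genes 453 and 253 against 361 and 297. For 12 fibroblast genes it was 410 and 690 against 343 and 515, and for 14 macrophage genes 969 and 4349 against 2485 and 836. The leukocyte marker PTPRC read at most 3.28 and the endothelial marker CDH5 at most 3.31. The endothelial list held 1 member, PECAM1 (6.16 and 6.33 against 6.52 and 6.92). For 13 placental genes the sum was 388 and 567 against 330 and 187. Only 2 of them reached 6, LGALS14 below and the hormone subunit CGA above. The sum therefore does not describe placental genes as a group. For 11 pancreatic and intestinal genes the sum overlapped, with the trefoil peptide TFF3 below.

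Some members were neighbours in the genome. In RefSeq order among the genes reaching 6, 10 adjacent pairs had gaps of at least 0.5 in the same direction. Upward these were DKK3 with MICAL2 and FAM3B with MX2. Downward they were REG1A with REG3A, PSMB9 with HLA-DMB, HLA-DMB with HLA-DMA, the protease inhibitors PI3 with SLPI, PFKFB4 with COL7A1, TIMP2 with LGALS3BP, TRIM31 with TRIM10, and SERPINA7 with PWWP3B. DKK3, a secreted glycoprotein of the Dickkopf family, read 7.97 and 8.47 against 9.63 and 9.39. MICAL2, an oxidase that disassembles actin filaments, read 6.46 and 6.93 against 7.87 and 8.17. By chromosome, the upward share ran from 1.42% on chromosome 4 to 7.85% on chromosome 11, and the downward share from 1.06% on chromosome 13 to 6.14% on chromosome 21.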

How the data were processed

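Messenger RNA was measured on 4 Affymetrix arrays, and the table used here holds 54613 probesets. The authors deposited log2 values made with RMA in the affy package, per the submitters' processing notes, without versions. RMA subtracts background, forces the probes of all arrays to 1 distribution and condenses them to 1 value per probeset, which makes array medians alike (4.67 to 4.85). There are no counts, and precision is limited by having 4 arrays.

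The platform annotation gave 1 symbol for 41091 probesets, several for 1801 and none for 11721, and 41037 matched RefSeq GRCh38.p14 by Entrez number, with 0 symbols altered. For 19775 genes the probeset of highest mean signal was used, passing over names ending in _x_at where possible (419 genes had no other). Genes were kept where 1 array reached 6.

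F6 and F12 were set against the F0 pair by the gap, and with lmFit and eBayes of limma 3.58.1 under R 4.3.3. The fit had 2 groups, 2 residual degrees of freedom and Benjamini-Hochberg adjustment over all genes. It was tried on simulated arrays that spread far less than the real ones, so that trial does not show how it performs here. Since nothing says that the F0 arrays came from separate cultures, the p-values reflect only how these arrays spread, which may be technical. The members, the 37 gene lists and the tests were chosen with earlier results of these data known, and 6 further lists after these values were seen. Named were the 20 widest gaps in each direction, list members with a gap or that define a list, KDR, FLT1, FLT4, AURKA, AURKB, AFP and ALB, and for TMSB4X the 5 nearest profiles. Alternatives changed the probeset choice, the minimum, the scaling, the fit and the arrays.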

Additional observations from a re-analysis of the deposited data

How the results depend on the processing

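Leaving out 1 array in turn gave 1605 to 5091 genes upward and 1053 to 5050 downward, and 108 to 3122 upward and 102 to 544 downward with a 2-fold gap. The lowest counts came without F12 and the highest without F0 (2). Leaving out F0 (1) gave 2968 and 3044, with 112 and 398 at 2-fold, and leaving out F6 gave 3125 and 3082, with 310 and 257. A pair of 1 array makes a gap easier to reach by construction. Requiring a gap in every probeset left 237 upward and 222 downward, but only 28 and 38 of these had more than 1 probeset. Genes with a single probeset meet this requirement by construction. Dropping the minimum gave 895 downward. The mean of all probesets gave 434 and 338 (305 and 274 of them shared with the 568 and 429), and quantile normalization of the genes again gave 549 and 461 (367 and 289 shared, and at 2-fold 14 of 20 and 28 of 37). Under the least separated probeset, 14 of the 15 named genes with several probesets had no gap, all but MGLL. For LOXL4, PTPRO, FOXO1, EXD2 and MGST3 the resistant mean in that probeset lay on the opposite side of the parental mean. Their gaps in it were -1.53, -0.70, -1.75, -1.71 and -0.59. Of these 5 probesets, only that of LOXL4 reached 6. With the mean of probesets 1 of 40 named genes had no gap. limma made 0 calls under every alternative run, with 7 to 1626 genes at an unadjusted p under 0.05 when 1 array was left out, 23 in the fit of 3 groups and 200 without moderation. No paired analysis was possible because the labels give the groups no shared replicate numbers. Signals under 6 limit the exactness of a fold: in 9 of 20 upward and 18 of 37 downward genes with a 2-fold gap the lower pair lay under 6 on both arrays.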

Other observations

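The narrowest part of the set holds most of its genes. Without the minimum signal, 784 genes had a gap upward and 895 downward, of which 216 and 466 never reached 6, so genes near background were more numerous on the downward side. Among members, F0 (2) was the F0 array nearer to the resistant pair for 375 of the 568 upward genes and F0 (1) for 192, and for the downward genes F0 (2) was the nearer for 262 and F0 (1) for 167. The lower pair read under 6 on both arrays for 75 of the upward and 95 of the downward members.

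The protease inhibitor genes PI3 and SLPI, neighbours in the genome, were both downward members. PI3 (elafin) read 9.31 and 7.23 on the F0 arrays against 6.08 on F6 and 4.76 on F12. Its second probeset had a gap too (8.56 and 6.53 against 5.34 and 3.93). SLPI, the secretory leukocyte peptidase inhibitor encoded beside PI3, read 7.79 and 7.62 against 6.76 and 5.61. TIMP2 read 7.45 and 6.68 against 5.90 and 4.57, while TIMP1 read 5.50 and 3.98 against 6.64 and 6.34. SNRPG, a core spliceosome protein, read 12.19 and 11.91 against 11.02 and 10.98, and NIP7, a ribosome biogenesis factor, 9.05 and 9.25 against 8.02 and 8.13. These genes were named after their values were seen. TLE2, a Groucho corepressor, read 8.50 and 8.28 against 6.98 and 6.79 with both probesets separated, and LIMK2, the kinase that phosphorylates cofilin, 9.94 and 9.02 against 7.67 and 7.12. The antimicrobial peptide gene LEAP2 read 8.87 and 8.68 against 7.43 and 7.13, and IRF8, an interferon regulatory factor of myeloid cells, 6.90 and 7.85 against 6.03 and 5.10.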
